A study of Mus musculus with 12 samples.

Results

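The culture format by time interaction asks, gene by gene, whether the difference between spheroids and monolayers of mouse mammary epithelial cells at 96 h was the same as at 48 h. It is the log2 spheroid minus monolayer difference at 96 h minus that at 48 h, and the same number is the 48 h to 96 h change in spheroids minus that in monolayers. All 12 of the 12 RNA sequencing libraries of the series enter it. There are 3 libraries in each of 4 groups: monolayers at 48 h, monolayers at 96 h, spheroids at 48 h and spheroids at 96 h. The cells are of strain C57BL/6, with no allele, transgene or cell line named. Monolayers were replated on dishes coated with collagen. Spheroids formed from trypsinized cells suspended in a gel made mostly of growth factor-reduced Matrigel, a mix of basement membrane proteins. Cultures of either format received progesterone and prolactin, at 1 µM and 1 µg/mL. Matrix changed together with format, and for the gels alone a change of medium after 48 h is recorded, so format, matrix and feeding cannot be told apart. The series calls the replicates biological; whether they are separate animals or separate dishes is not stated, so p-values measure only the spread between these samples.

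Mammary epithelium consists of luminal cells, which face the duct and make milk under prolactin, and basal cells, which contract and touch the basement membrane. On stiff flat dishes such cells spread, build actin cables and focal adhesions, and divide until contact and crowding slow them. In a laminin-rich gel they round up into polarised clusters and can switch on milk protein genes. The series concerns chromosome segregation, the mitotic step in which spindle fibres pull sister chromosomes apart under the watch of a checkpoint at the kinetochores.

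Library totals ranged from 7674105 to 13554497 counts, and 13951 genes had enough counts to test. The first principal component (59.6% of the variance) set monolayers apart from spheroids, and the pairs of times lay apart within each format. Epithelial markers were high in every library: Epcam ranged from 836 to 1367 CPM (counts per 1e+06 counts) by total count and Krt8 from 1456 to 4191 CPM. Markers of other cells were also counted. Summed over 16 markers, fibroblast signal was 9780 to 10658 CPM in 48 h monolayers, 4236 to 5271 CPM in 96 h monolayers, 3283 to 3668 CPM in 48 h spheroids and 1359 to 1412 CPM in 96 h spheroids. The fat cell hormone Adipoq held 20 counts over all 12 libraries. Of 20 immune markers, 6 could be tested, of which 4 were below 0 and 1 above for the interaction. Their sum was 29.8 to 43.3 CPM in 48 h monolayers, 59.4 to 65.5 CPM in 96 h monolayers, 35.4 to 42.2 CPM in 48 h spheroids and 33.1 to 38.1 CPM in 96 h spheroids. The macrophage gene Cd68 averaged 2.44 CPM in 48 h monolayers, 24.9 CPM in 96 h monolayers, 4.86 CPM in 48 h spheroids and 5.02 CPM in 96 h spheroids (interaction -3.31). Itgam, an integrin of myeloid cells, lay on the other side (1.26), and the pan-leukocyte gene Ptprc held 15 counts in all. In bulk RNA, fewer cells of a type and less RNA per cell cannot be told apart.

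Across all tested genes, the interaction passed edgeR's quasi-likelihood test (adjusted p under 0.05) for 7433, or 53.3%. It was above 0, toward spheroids, for 3750 (26.9%) and below 0 for 3683 (26.4%). By over 2-fold there were 2936 (21%), 1077 above and 1859 below 0. At an unadjusted p under 0.05 there were 8156. The even split depends on scaling: above 0 made up 50.5% of calls here, 43.6% with upper-quartile factors, 34.2% when libraries were scaled by total count alone and 35.6% on the log2 FPKM values. The median interaction over all genes moved from -0.018 to -0.205 with total counts and -0.151 with log2 FPKM. For 47.2% of tested genes, all 9 spheroid minus monolayer differences at 96 h lay on one side of all 9 at 48 h.

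Called genes fall into 5 classes by their spheroid effect at each time, a description with no test of its own. The effect grew, keeping its sign, for 2008 genes (14.4% of those tested), 1213 of them higher and 795 lower in spheroids. For another 2638 (18.9%) it appeared, being called at 96 h only. It shrank for 640 (4.59%) and faded, being called at 48 h only, for 987 (7.07%). It reversed for 1059 (7.59%), with 476 turning from lower to higher (3.41%) and 583 from higher to lower (4.18%). The other 101 called genes passed at neither time. The spheroid effect itself was called for 57.9% of genes at 48 h (31.6% higher, 26.4% lower) and 73.8% at 96 h (37.3% higher, 36.5% lower). Among genes called for the interaction, its median size on the log2 scale was 0.41 at 48 h and 0.79 at 96 h.

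**Figure D1:**
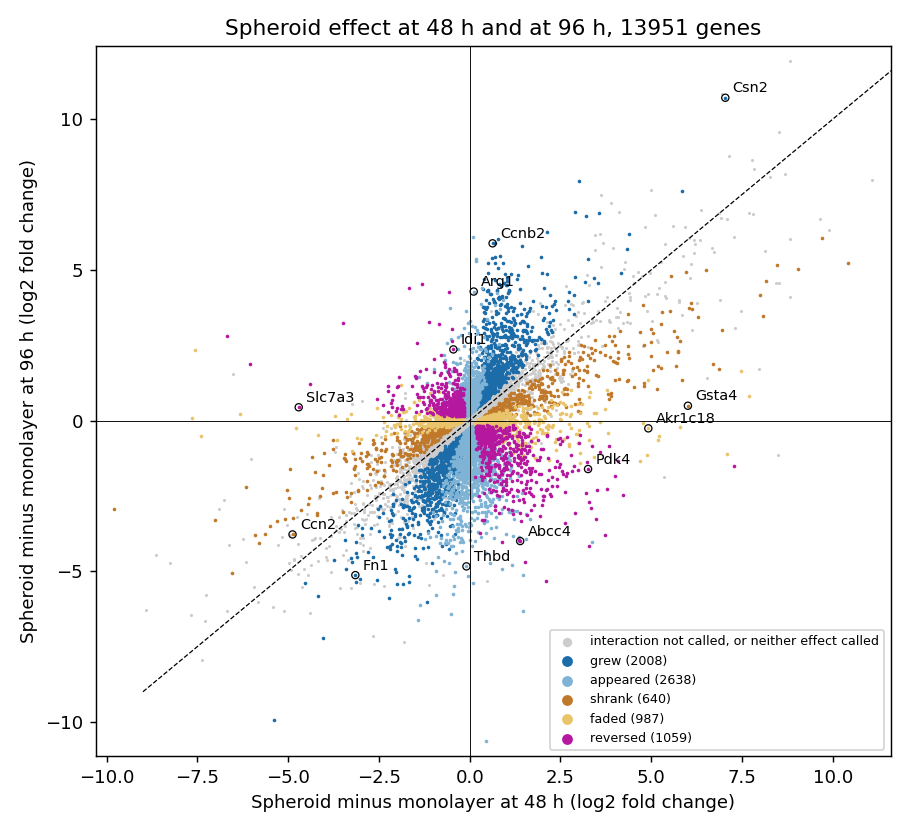
Each point is 1 of 13951 tested genes, placed by its spheroid minus monolayer log2 fold change at 48 h (horizontal) and at 96 h (vertical), and coloured by class; the dashed line marks equal effects. Grown effects (2008 genes) lie beyond the line away from 0, shrunken ones (640) between the line and the horizontal axis, and the 1059 reversed genes in the upper left and lower right.

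Monolayers moved more often than spheroids. Between 48 h and 96 h, 61.3% of genes changed in monolayers (30.1% up, 31.3% down) and 39.8% in spheroids (19.3% up, 20.5% down). A called gene is termed monolayer-led where its log2 time change in monolayers was at least 2 times as large as in spheroids. By this measure 3806 genes (27.3% of those tested) were monolayer-led and 1453 (10.4%) spheroid-led. In 1992 (14.3%) the formats moved in opposite directions by more similar amounts, and in 182 (1.3%) in the same direction. Of grown effects that were higher in spheroids, 825 of 1213 were monolayer-led and 125 spheroid-led, while of those lower in spheroids 253 of 795 were monolayer-led and 333 spheroid-led. In every other class monolayer-led genes outnumbered spheroid-led ones in both directions, for example 730 against 253 among the 1398 effects that appeared lower and 242 against 110 among reversals to lower. Over all calls below 0, 1626 were monolayer-led and 927 spheroid-led. Across the 7433 called genes the time changes of the formats had a Pearson r of -0.27, and over all tested genes -0.04, given as a description across genes.

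**Figure D2:**
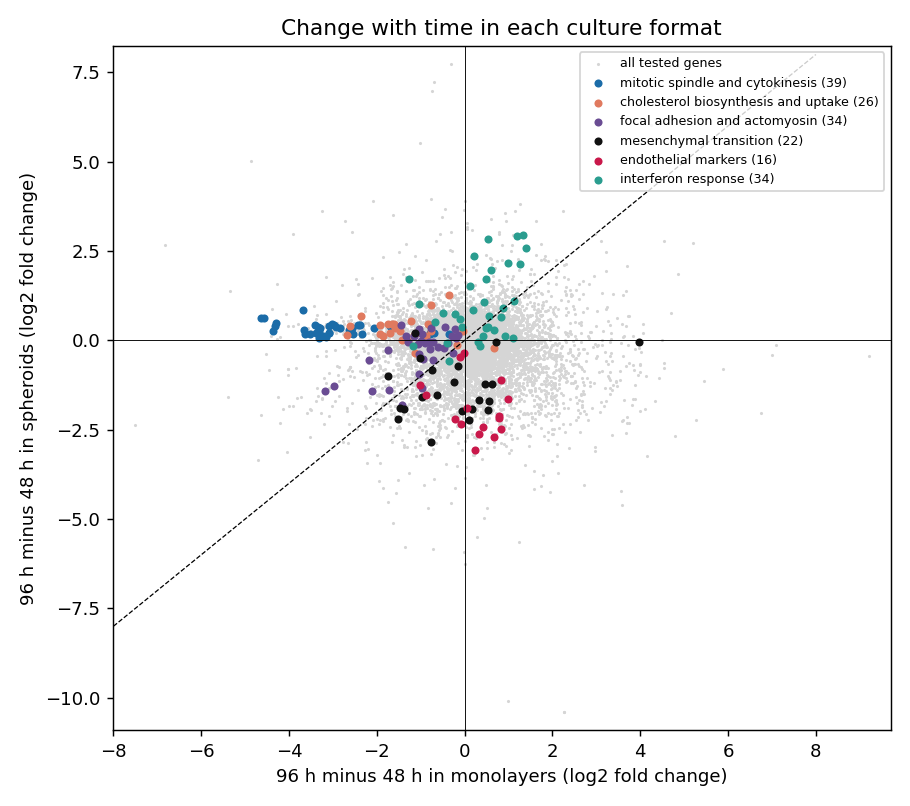
Each point is a gene, placed by its 96 h minus 48 h log2 fold change in monolayers (horizontal) and in spheroids (vertical); 6 gene lists are coloured over all tested genes in grey, and the dashed line marks equal changes, that is, no interaction. Mitotic genes (39) spread left along the horizontal axis, having fallen in monolayers, while endothelial markers (16) and most mesenchymal genes (22) lie below it, lower at 96 h in spheroids.

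Cell division genes held the most uniform growth. In the list of mitotic spindle and cytokinesis genes, the interaction was above 0 for 39 of 39 and below 0 for none, where 26.9% of all tested genes were above 0. Its median was 3.39 on the log2 scale, against -0.02 over all genes. The spheroid effect grew for 37 of the 39, and 37 were monolayer-led. At 48 h the median member was higher in spheroids by 0.63 and at 96 h by 4.05; over the same time the median change was -3.09 in monolayers and 0.29 in spheroids. Libraries with more dividing cells and cells with more of these transcripts cannot be told apart here.

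Ccnb2, a B-type cyclin that drives entry into mitosis, had the largest interaction among genes whose effect grew upward and that met the naming rule. It stood at 34.9, 35.2 and 38.5 CPM in 48 h monolayers and at 0.8, 1.38 and 2.2 CPM in 96 h monolayers. In spheroids it stood at 49.6, 59.1 and 59.8 CPM at 48 h and at 89.1, 84.9 and 84.2 CPM at 96 h. No 2 groups overlapped: spheroids were a little higher at 48 h and kept rising, while monolayers lost nearly all of the transcript. The 1.55-fold spheroid excess at 48 h became 59-fold at 96 h, an interaction of 5.25 ± 0.202 log2 units (SE; edgeR adjusted p = 4.42e-13). Nusap1, which bundles spindle microtubules, went from 1.63-fold to 59-fold (interaction 5.18), and Kif2c, a kinesin that takes microtubules apart at kinetochores, from 1.53-fold to 41.9-fold (4.78).

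The antigen Mki67, a standard marker of dividing cells, stood at 163, 143 and 117 CPM in 48 h monolayers and 14, 15.3 and 23.9 CPM in 96 h monolayers. Its spheroid values were 371, 319 and 352 CPM at 48 h and 515, 418 and 467 CPM at 96 h. The spheroid excess grew from 2.47-fold to 26.2-fold. Ccnb1, the other main mitotic cyclin, gave an interaction of 4.63 ± 0.138 (edgeR adjusted p = 3.29e-14).

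Among spindle checkpoint and kinetochore genes, 39 of 44 had an interaction above 0 and 1 below, with a median of 2.14; 35 grew and 37 were monolayer-led. The kinetochore is the protein plate that ties a chromosome to the spindle, and the checkpoint built on it delays anaphase. Cdc20, the activator of the anaphase-promoting complex that the checkpoint restrains, fell 11.3-fold in monolayers and rose 1.19-fold in spheroids (interaction 3.74 ± 0.189, edgeR adjusted p = 1.48e-11). The checkpoint kinase-like protein Bub1b gave 3.01, its partner Mad2l1 2.28 and the attachment-correcting kinase Aurkb 3.26. Larger values belonged to the centromeric histone Cenpa (4.41) and to the kinetochore proteins Cenpf (4.26) and Cenpe (3.80). Zwint, a kinetochore scaffold protein, was the member below 0: it rose in monolayers by 0.59 and fell by 0.26 in spheroids. The members not called were Zw10, Mis12, Dsn1 and Cenpo.

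Cohesin and condensin are the rings that hold and compact sister chromosomes. The list of their genes, which also holds regulators and Top2a, was less uniform than the mitotic one. It had 18 members above 0 and 3 below of 26, with a median of 0.74. Top2a, which untangles DNA before anaphase, was the highest at 3.30, and the condensin subunit Ncapg stood at 3.20. The cohesin loader Nipbl (-0.42) was the lowest, with Pds5a and Esco1 the other members below 0. The Nipbl call was lost on the log2 FPKM values (limma adjusted p = 0.411).

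DNA replication genes followed the mitotic ones at smaller size: 38 of 43 were above 0, none below, with a median of 1.24, and 37 were monolayer-led. Rrm1, a subunit of the enzyme that makes deoxynucleotides, stood at 150, 152 and 156 CPM in 48 h monolayers and 31.7, 30.1 and 37.1 CPM in 96 h monolayers. In spheroids it was 248, 244 and 241 CPM at 48 h and 273, 288 and 287 CPM at 96 h. The helicase subunits Mcm5 (1.93) and Mcm2 (0.74) and the sliding clamp Pcna (1.24) lay on the same side. Mcm5 fell by 2.03 in monolayers, and its change of -0.10 in spheroids did not pass.

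Regulators of the cycle were mixed, with 12 of 27 above 0 and 5 below. Foxm1, a transcription factor for mitotic genes, stood at 35.6, 32.7 and 30.1 CPM in 48 h monolayers, 5.52, 5.14 and 6.53 CPM in 96 h monolayers, 46.7, 51.7 and 51.7 CPM in 48 h spheroids and 67.4, 61.5 and 59 CPM in 96 h spheroids (interaction 2.83). E2f1, which drives entry into DNA synthesis, went the other way: it rose in monolayers by 0.45, and its interaction was -0.67 ± 0.128 (edgeR adjusted p = 0.000258). The D-type cyclin Ccnd2 (-1.48) and the CDK inhibitor Cdkn1a (-0.72) were below 0 and spheroid-led.

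Promoters of mitotic genes are known to carry the CHR element, TTTGAA, and CCAAT boxes, elements used by cell cycle dependent factors. Both strands were searched in RefSeq promoters (GRCm38.p6, 250 bases before to 50 after each start). CHR letters were in 17.9% of all 32851 promoters and CCAAT letters in 37.4%. Of the promoters of mitotic spindle genes, 30 of 37 (81.1%) held CHR and 26 (70.3%) CCAAT. For kinetochore genes it was 20 of 42 (47.6%) and 29 (69%), and for replication genes 7 of 38 (18.4%) and 19 (50%). Across tested genes the CHR share was 12% of 13354 promoters. It was 21.2% where the interaction was called above 0 by over 2-fold, 10.7% where it was called below 0 by over 2-fold and 11.7% where it was not called. A match describes letters in a window and is not a binding site. The 250 bases before the start are shown for 4 genes whose spheroid effect grew, to set strong and weak element content side by side; capitals mark CHR and CCAAT on either strand.
Ccnb2 (chr9:70421555-70421804, minus strand): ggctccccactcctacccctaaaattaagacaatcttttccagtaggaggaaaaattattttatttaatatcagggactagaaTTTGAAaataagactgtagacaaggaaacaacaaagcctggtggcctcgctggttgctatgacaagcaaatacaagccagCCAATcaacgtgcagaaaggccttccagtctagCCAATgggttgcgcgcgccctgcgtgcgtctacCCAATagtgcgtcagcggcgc
Cdc20 (chr4:118437344-118437593, minus strand): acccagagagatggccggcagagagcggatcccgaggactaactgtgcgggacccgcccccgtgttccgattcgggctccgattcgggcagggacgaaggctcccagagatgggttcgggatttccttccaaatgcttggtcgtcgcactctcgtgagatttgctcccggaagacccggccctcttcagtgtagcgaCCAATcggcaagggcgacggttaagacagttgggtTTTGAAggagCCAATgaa
Mki67 (chr7:135716380-135716629, minus strand): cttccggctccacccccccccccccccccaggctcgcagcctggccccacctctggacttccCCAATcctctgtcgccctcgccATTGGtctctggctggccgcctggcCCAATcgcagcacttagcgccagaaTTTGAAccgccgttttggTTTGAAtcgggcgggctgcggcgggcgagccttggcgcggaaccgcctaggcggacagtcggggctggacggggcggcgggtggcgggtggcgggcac
Kif2c (chr4:117178773-117179022, minus strand): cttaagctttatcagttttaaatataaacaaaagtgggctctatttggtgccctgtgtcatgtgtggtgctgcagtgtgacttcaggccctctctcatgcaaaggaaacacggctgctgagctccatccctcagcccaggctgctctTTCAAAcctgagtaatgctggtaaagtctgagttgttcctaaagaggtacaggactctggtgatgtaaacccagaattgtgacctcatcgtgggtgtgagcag
Ccnb2 holds 1 CHR and 3 CCAAT matches, Cdc20 1 and 2 with the CHR match beginning 18 bases before the start, and Mki67 2 and 3. Kif2c holds 1 CHR match, on the opposite strand, and no CCAAT, though its interaction was next to that of Nusap1 in size.

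**Figure D3:**
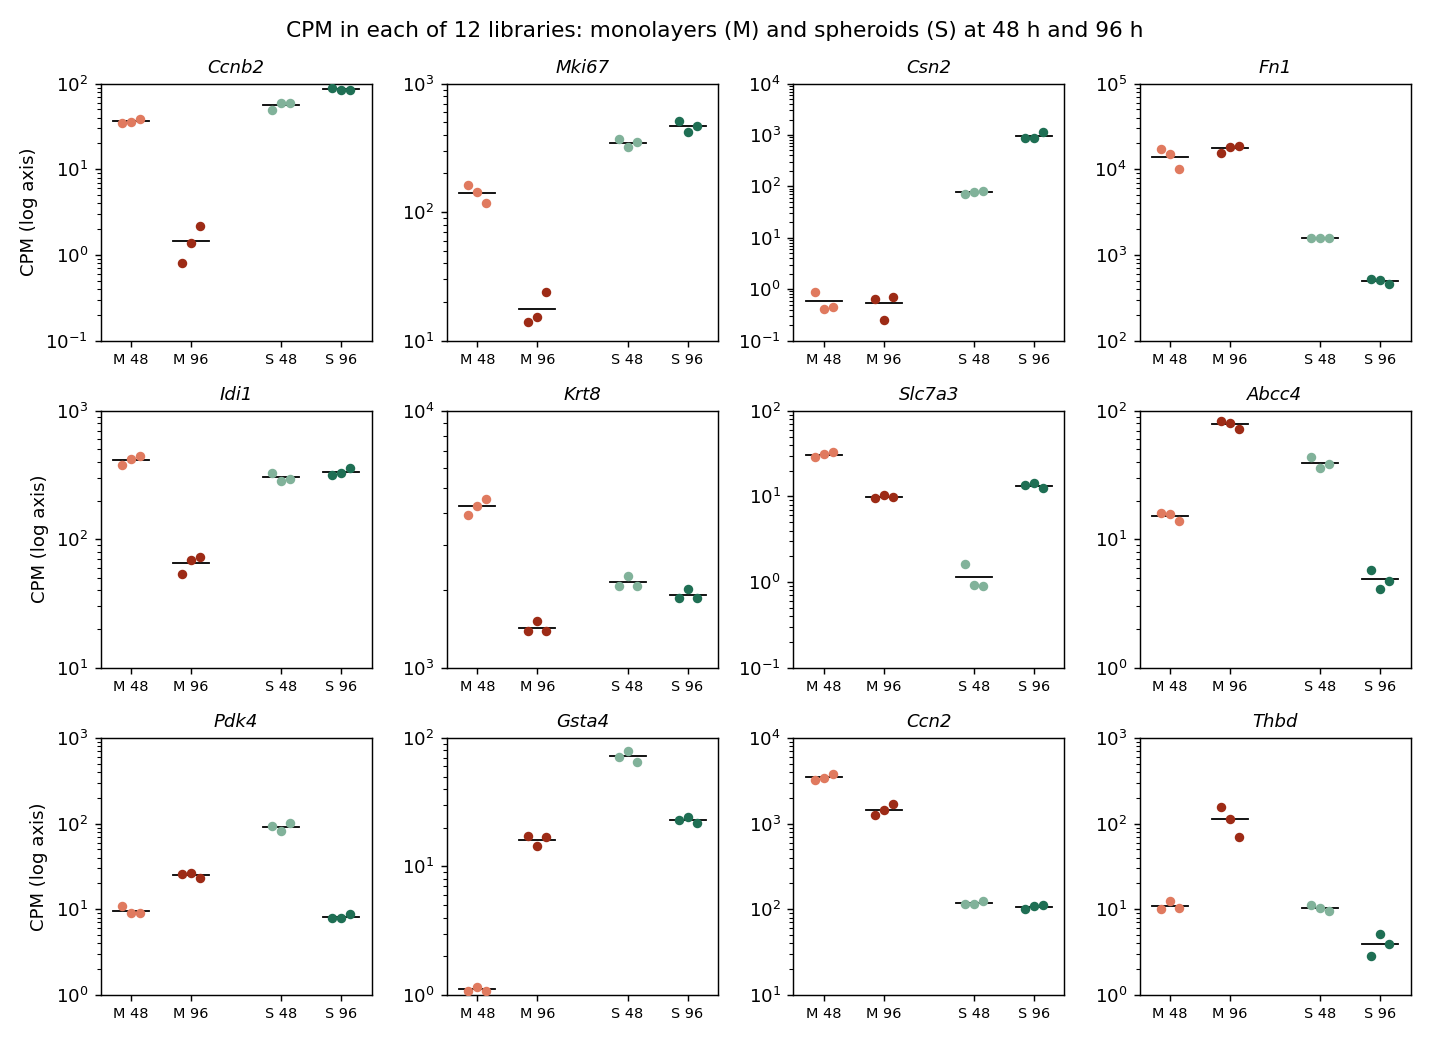
CPM in each library on a log axis for 12 genes; points are the 3 libraries of a group and bars their mean, for monolayers (M) and spheroids (S) at 48 h and 96 h. Ccnb2 and Idi1 drop in the 96 h monolayers, Csn2 and Fn1 move in the spheroids, and Slc7a3, Abcc4 and Pdk4 change order between the times.

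Genes of the mesenchymal state, the migratory programme that epithelial cells can adopt, showed the opposite kind of growth. In the mesenchymal transition list, 16 of 22 had an interaction below 0 and 3 above, with a median of -0.91; the background is 26.4% below 0. Here spheroids led for 9 and monolayers for 4. The median time change was -1.55 in spheroids and -0.19 in monolayers. Fn1, fibronectin, held 17027, 15005 and 9995 CPM in 48 h monolayers and 15611, 18075 and 18875 CPM in 96 h monolayers. In spheroids it went from 1577, 1585 and 1579 CPM to 523, 512 and 461 CPM. The monolayer libraries of the 2 times overlapped and the spheroid ones did not. Its spheroid effect grew from 8.86-fold to 35.1-fold lower (interaction -1.99 ± 0.188, edgeR adjusted p = 7.32e-08).

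Transcription factors that repress epithelial genes were below 0 by different routes. Zeb1 fell 4.69-fold in spheroids, where its libraries went from 17.5, 17.3 and 15.6 CPM to 3.52, 4.11 and 3.12 CPM. In monolayers it stood between 18 and 23.5 CPM at both times. Twist1 fell 3.79-fold in spheroids (interaction -2.10). Snai2 was monolayer-led: it rose there by 0.72, and its change of -0.04 in spheroids did not pass (-0.77). The adhesion gene Cdh2, N-cadherin, rose 1.54-fold in monolayers and fell 2.35-fold in spheroids (-1.85). Exceptions were Tgfb2, a growth factor of the TGF-beta family (1.35), with Postn and Thbs1, which were above 0. Vim, vimentin, was not called (-0.08, edgeR adjusted p = 0.564). It fell by 0.75 in monolayers and by 0.83 in spheroids; with log2 FPKM or total counts it passed at -0.27.

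Markers of endothelial cells moved with that list. Of 16, 12 were below 0 and none above, with a median of -2.42, and 9 were spheroid-led. Tek, the angiopoietin receptor, stood at 5, 4.23 and 3.49 CPM in 48 h monolayers and 6.64, 7.26 and 6.44 CPM in 96 h monolayers. In 48 h spheroids it stood at 3.22, 2.66 and 3.34 CPM and in 96 h spheroids at 0.459, 0.494 and 0.446 CPM. Cdh5, the endothelial cadherin, gave -2.96 and Pecam1 -2.91. Summed over the list, levels were 101 to 124 CPM in 48 h monolayers, 131 to 139 in 96 h monolayers, 108 to 127 in 48 h spheroids and 50.8 to 56.6 in 96 h spheroids. All 16 markers had counts in every group, and their part in the fall of mesenchymal genes was not tested. The same holds for fibroblast markers, whose sums are given above. Those were mixed in the interaction, with 7 above 0 and 6 below of 16: Pdgfra, a receptor for platelet-derived growth factor, reversed to lower (-3.83), as did the matrix proteoglycan Dcn (-2.93). Collagen III, Col3a1, reversed to higher (1.56), although its level fell in both formats (by 3.51 in monolayers and 1.96 in spheroids).

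The largest downward growth under the naming rule was in Mmp10, Angpt2 and Chst11. Mmp10, a secreted matrix protease, went from 2.05-fold to 26.8-fold lower in spheroids (-3.71). Angpt2, a ligand of Tek, held 15.6, 18.4 and 15.3 CPM in 48 h monolayers, 59.1, 55.1 and 57 CPM in 96 h monolayers, 4.64, 4.63 and 6.23 CPM in 48 h spheroids and 1.53, 1.81 and 1.41 CPM in 96 h spheroids. Monolayers rose 3.47-fold and spheroids fell 3.25-fold. Chst11, which sulfates chondroitin chains, behaved alike, going from 2.83-fold to 22.7-fold lower (-3.00 ± 0.105, edgeR adjusted p = 1.44e-13).

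Matrix proteases and inhibitors had 20 of 31 below 0 and 7 above (median -0.86). Mmp13, a collagenase, differed by 1.11-fold between formats at 48 h, which did not pass, and by 16-fold at 96 h. It rose in monolayers from 9.41, 10.9 and 12.1 CPM to 66.8, 46 and 43.1 CPM, and fell in spheroids from 14.8, 11.1 and 9.91 CPM to 3.36, 2.96 and 3.42 CPM. The inhibitor Timp3 was the highest member at 1.97: monolayers fell from between 1552 and 1769 CPM to between 446 and 496 CPM, while spheroids stayed between 1458 and 1853 CPM. Basement membrane genes (10 above, 13 below of 30) and fibrillar collagen genes (7 above, 9 below of 26) had no common direction, and the signs of their medians, 0.05 and -0.19, turned under some settings.

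Integrins, the receptors that bind this matrix, had 10 of 21 below 0 and 3 above (median -0.69). The fibronectin receptor subunit Itga5 stood between 477 and 513 CPM in all 6 monolayer libraries. In spheroids it fell from 231, 247 and 232 CPM to 61.4, 59.2 and 55.2 CPM, so its spheroid effect grew from 2.14-fold to 8.32-fold lower. Itgb3, part of the vitronectin receptor, rose 2.33-fold in monolayers and fell 2.49-fold in spheroids (-2.54 ± 0.0945, edgeR adjusted p = 3.07e-13). The laminin receptor subunit Itga6, higher in spheroids, shrank from 1.88 to 1.19 on the log2 scale. Itgb1, the partner of most of them, was not called (0.23, edgeR adjusted p = 0.074); with DESeq2 or no filter on low counts it passed at 0.25 and 0.26. It also passed without monolayer 48 h replicate 1 (edgeR adjusted p = 0.0306) or monolayer 96 h replicate 2 (0.0469) or 3 (0.0417).

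Cholesterol genes carried the highest share of reversals among the 32 lists. The pathway builds sterols from acetyl-CoA under the transcription factor SREBP2. The interaction was above 0 for 23 of 26 members and below for 1 (median 1.75), and 15 reversed where the share over all tested genes was 7.59%. At 48 h 20 members were lower in spheroids and 2 higher; at 96 h 4 were lower and 19 higher. Monolayers led for 21, where 24 members fell and 1 rose with time. In spheroids 14 rose and 2 fell.

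Idi1, an isomerase that makes the building block of sterols, stood at 380, 419 and 445 CPM in 48 h monolayers and 53.8, 68.6 and 72.7 CPM in 96 h monolayers. Its spheroid libraries stood at 330, 286 and 293 CPM at 48 h and 317, 326 and 357 CPM at 96 h, which overlap. Spheroids were thus 1.37-fold lower at 48 h and 5.15-fold higher at 96 h (interaction 2.82 ± 0.137, edgeR adjusted p = 8.86e-12). Fdps, which makes farnesyl diphosphate, gave 2.35, and the kinase Pmvk the largest value of the list, 3.03. Scap, the sensor that escorts SREBPs, was the member below 0 (-0.90). The letters of the sterol regulatory element, searched as TCAC, any base, then CCAC, were in none of the 24 promoters of the list's genes. They were in 1.13% of promoters of tested genes. At so low a share, finding none in 24 promoters cannot tell whether the list lacks such elements, and only this string was searched.

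Fatty acid genes were less uniform, with 13 of 27 above 0 and 7 below. Fasn, fatty acid synthase, appeared higher at 96 h (1.14), monolayers having fallen by 0.90. Cd36, a fatty acid transporter, shrank: it stood between 0.984 and 3.38 CPM in all monolayers, at 77.3, 57.9 and 75.2 CPM in 48 h spheroids and at 11.2, 12.3 and 11.8 CPM in 96 h spheroids (-3.42). The desaturase Fads2 faded, its 5.15-fold deficit in 48 h spheroids becoming 1.03-fold at 96 h, when the formats did not differ by the test. Adipocyte markers moved at the same time: 5 of 6 tested were below 0 and none above, all 5 spheroid-led. Their sum was 641 to 704 CPM in 48 h spheroids and 140 to 158 CPM over the other groups. Fabp4, a fatty acid carrier, reversed (-3.52), and Pparg shrank (-1.16). Adipoq was near 0 throughout, and Cd36 is itself one of these markers, so their part in the fatty acid result was not tested.

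Amino acid genes reversed in both directions. In the list for unfolded protein and amino acid stress, 12 of 31 were above 0, 6 below, and 9 reversed. The shares over all tested genes were 26.9%, 26.4% and 7.59%. The list median was 0.14 and changed sign in 2 of 20 alternatives. Psat1, an enzyme of serine synthesis, held 235, 252 and 252 CPM in 48 h monolayers and 82.6, 84.8 and 84.6 CPM in 96 h monolayers. In spheroids it rose from 133, 151 and 148 CPM to 372, 371 and 391 CPM, so that the 1.71-fold deficit became a 4.5-fold excess (2.95 ± 0.0922, edgeR adjusted p = 4.7e-14). Shmt2, which passes serine carbon to folate, gave 2.36, and asparagine synthetase, Asns, 2.35. Slc7a11, the cystine importer, went the opposite way: monolayers rose from 48.8, 54.5 and 40.3 CPM to 308, 284 and 243 CPM and spheroids fell from 245, 212 and 225 CPM to 53.1, 46.1 and 46.6 CPM (-4.76). The chaperone genes of the list, such as Hspa5 and Pdia6, were among the 13 not called.

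Under the naming rule, the reversals toward spheroids were Ccl9, Slc7a3 and Car2. Ccl9, a chemokine, had 17.7, 19.5 and 18.2 CPM in 48 h monolayers, 0.8, 1 and 1.06 CPM in 96 h monolayers, 7, 7.41 and 7.9 CPM in 48 h spheroids and 21.3, 21.3 and 24.1 CPM in 96 h spheroids. It turned from 2.49-fold lower to 23.3-fold higher (5.86 ± 0.195, edgeR adjusted p = 7.9e-14). The arginine transporter Slc7a3 was 26.1-fold lower in spheroids at 48 h and 1.35-fold higher at 96 h, and spheroids led: their libraries went from 1.61, 0.927 and 0.891 CPM to 13.5, 14.2 and 12.5 CPM. Carbonic anhydrase Car2 was monolayer-led, falling 10.8-fold there (4.38).

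Turning the other way, Abcc4, an exporter of cyclic nucleotides and drugs, stood at 15.9, 15.6 and 13.8 CPM in 48 h monolayers and 83, 80.4 and 71.7 CPM in 96 h monolayers. Its spheroid levels were 43.7, 36 and 38.6 CPM at 48 h and 5.73, 4.11 and 4.75 CPM at 96 h. The formats changed places without overlap, from 2.62-fold higher to 16-fold lower in spheroids (-5.39 ± 0.157, edgeR adjusted p = 2.8e-14). Cck, a peptide hormone, gave -5.09. Angptl4, a secreted inhibitor of lipoprotein lipase, gave -5.00, having been 6.15-fold higher and then 5.21-fold lower. Pdk4, which slows glucose oxidation and was chosen after its values were seen, fell 11.2-fold in spheroids and rose 2.6-fold in monolayers (-4.86). The lipid droplet protein Plin2 (-2.54) and the secreted matrix protein Spp1 (-4.01) reversed too; Spp1 held 311, 339 and 382 CPM in 48 h monolayers, 5247, 5441 and 5493 CPM in 96 h monolayers and 1755 to 2001 CPM in all spheroids.

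Epithelial junction genes leaned toward spheroids with time: 32 of 40 were above 0 and 1 below (median 0.74), and 9 reversed, all to higher. Monolayers led for 19 and spheroids for 5. With time, 29 members fell and 2 rose in monolayers (median -0.57), while 20 rose and 2 fell in spheroids (median 0.23). The tight junction gene Cldn6 had the largest value, 3.23, passing from 4.79-fold lower to 1.96-fold higher. E-cadherin, Cdh1, was highest in 48 h monolayers at 1169, 1155 and 1092 CPM; the other groups lay between 685 and 842 CPM. Its reversal was small, -0.71 at 48 h and 0.15 at 96 h (edgeR adjusted p = 0.0371). Scaled by total count alone, its 96 h libraries overlapped, at 737 to 813 CPM in monolayers and 803 to 842 CPM in spheroids. The adhesion molecule Epcam (1.05), the claudin Cldn3 (1.36) and occludin, Ocln (0.74), reversed likewise. The scaffold Tjp3 was spheroid-led and grew from 2.21-fold to 8.11-fold higher. Dlg1, a polarity scaffold, was the member below 0 (-0.41).

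Keratins fell into several classes. The basal keratin Krt14 grew: its libraries stood at 465, 483 and 534 CPM in 48 h monolayers, 70.2, 67.1 and 83.5 CPM in 96 h monolayers, 1033, 1076 and 989 CPM in 48 h spheroids and 901, 912 and 910 CPM in 96 h spheroids. It fell 6.7-fold in monolayers (interaction 2.56), and its basal partner Krt5 fell 7.53-fold there (2.19). The luminal keratins Krt8 (1.41) and Krt7 (1.77) reversed from lower to higher in spheroids, and Krt18 (1.66) faded. Other keratins of the basal list did not follow Krt14: Krt6a shrank (-0.69), and Krt17 (0.26, edgeR adjusted p = 0.11) and Krt15 (-1.14, edgeR adjusted p = 0.436) were not called. Over the lists, 13 of 25 luminal markers were above 0 and 6 below, and of 26 basal markers 9 and 7. Among all tested genes the shares were 26.9% above and 26.4% below, and 17 of 29 housekeeping genes were above 0. Whether the luminal and basal lists differ was not tested. The lowest luminal marker was Pgr, the progesterone receptor, which fell in spheroids from 91.1, 83.9 and 79.8 CPM to 35.8, 37.7 and 37.9 CPM and rose in monolayers from between 7.22 and 7.45 CPM to between 12.6 and 14.2 CPM (-2.04). The basal marker Procr, a receptor for protein C, fell 4.53-fold in spheroids (-2.74).

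At each time most milk genes were higher in spheroids (23 of 26 at 48 h, 21 at 96 h). For the interaction 8 were above 0 and 6 below (median 0.19), shares near the 26.9% and 26.4% of all tested genes. Csn2, beta-casein, went from 70.7, 77.3 and 81 CPM to 894, 875 and 1122 CPM in spheroids, while all monolayer libraries stood at or below 0.882 CPM. With 19 and 18 counts over the monolayer groups, its monolayer side rests on few reads (interaction 3.67 ± 0.588, edgeR adjusted p = 4.38e-05). Csn3, kappa-casein, has more: 46.7, 54.2 and 58.5 CPM in 48 h monolayers, 80.3, 127 and 139 CPM in 96 h monolayers, 386, 423 and 387 CPM in 48 h spheroids and 2976, 2991 and 3317 CPM in 96 h spheroids. It rose in both formats, 2.16-fold and 7.76-fold (interaction 1.84). Csn1s1, an alpha casein, rose from 5.39, 5.68 and 4.79 CPM to 319, 318 and 407 CPM in spheroids. It rose in monolayers too, from 8 counts over the 48 h group to between 4.15 and 5.36 CPM. Its interaction (1.78, edgeR adjusted p = 0.0405) had an adjusted p from 8.43e-10 to 0.29 over the alternatives. It was lost with total counts (0.0559), without monolayer 48 h replicate 1, 2 or 3 (0.077, 0.0513 and 0.29), without spheroid 48 h replicate 1 or 3 (0.0507 each) and without monolayer 96 h replicate 3 (0.0531). Whether any reads were divided among casein genes was not tested. The factors upstream, Elf5 and Stat5a, were far higher in spheroids at both times and were not called for the interaction (0.03, edgeR adjusted p = 0.864, and -0.28, edgeR adjusted p = 0.0812). Stat5a passed in 6 of 20 alternatives, among them those without monolayer 48 h replicate 2 (0.0435) or spheroid 48 h replicate 1 (0.0424).

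**Figure D4:**
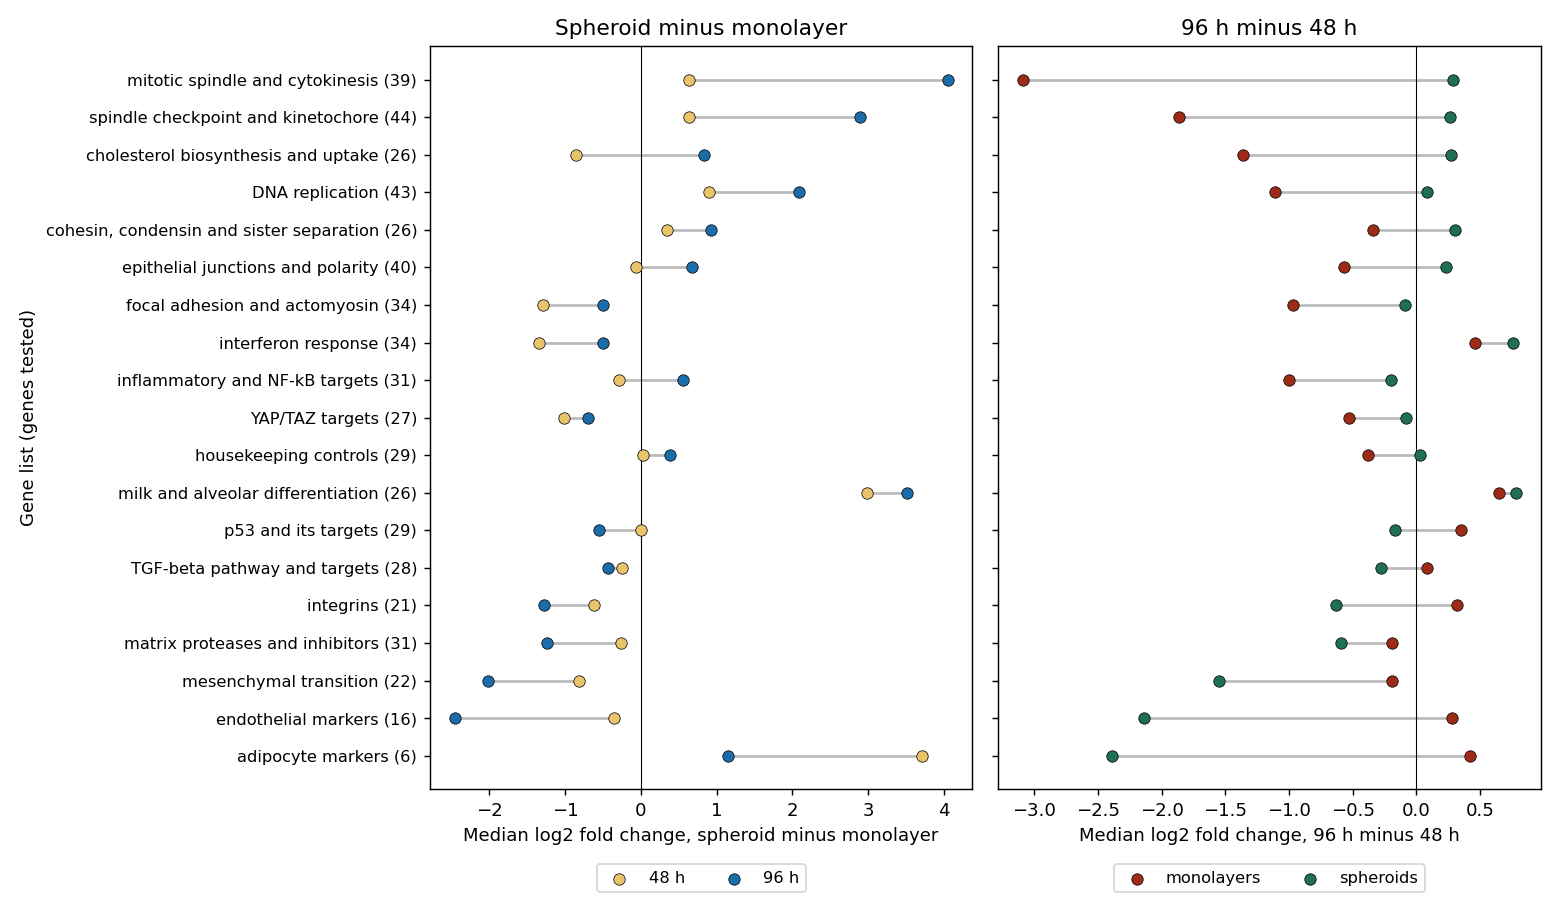
Median log2 fold change of 19 gene lists (number of genes tested in brackets): left, spheroid minus monolayer at 48 h and 96 h; right, 96 h minus 48 h in monolayers and spheroids. Mitotic and cholesterol lists are far to the left for monolayers only (medians -3.09 and -1.36), and mesenchymal, endothelial and adipocyte lists for spheroids (-1.55, -2.14 and -2.39).

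Shrinking effects were common among genes of adhesion and tension. Of 34 focal adhesion and actomyosin genes, 28 were above 0 and none below (median 0.69); 16 shrank, 7 faded and 23 were monolayer-led. At 48 h 32 of them were lower in spheroids and at 96 h 22 were. Acta2, smooth muscle actin, fell in monolayers from 1127, 1167 and 1326 CPM to 121, 147 and 190 CPM and in spheroids from 44, 49.5 and 50.6 CPM to 18.7, 21.9 and 18.6 CPM (1.70). The sum of fibroblast markers was lower in the same 96 h monolayers, at 9780 to 10658 CPM at 48 h and 4236 to 5271 CPM at 96 h. Col1a1, a collagen I chain, averaged 4029 and 522 CPM. Singly, 12 of the 16 markers fell in monolayers and 2 rose, Pdgfra by 1.54 and Dcn by 1.52 on the log2 scale. The part of fibroblast markers in the adhesion result was not tested. Cnn2, a calponin, had the largest value (1.90) and faded. So did Actb, cytoplasmic actin, which fell from 8007, 8486 and 9811 CPM to 3236, 3732 and 3717 CPM in monolayers and stood between 3350 and 3784 CPM in all spheroids.

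YAP and TAZ, cofactors that respond to spreading and tension, act through TEAD sites. The list of 27 holds known targets together with Yap1, Wwtr1 (TAZ) and their DNA-binding partner Tead1. Of these, 16 were above 0 and 5 below (median 0.45), against 26.9% and 26.4% of all tested genes. The lean was not particular to this list: 17 of 29 housekeeping genes were above 0 (median 0.38), though none of them shrank. In the YAP/TAZ list 11 shrank, Tead1 (0.73) among them, against 4.59% of all tested genes. Yap1 (0.07) and Wwtr1 (0.11) were not called. The target Ccn2 fell in monolayers from 3260, 3398 and 3810 CPM to 1255, 1429 and 1698 CPM and stood between 99.7 and 125 CPM in spheroids, so it went from 29.5-fold to 13.7-fold lower. Ccn1 went from 7.76-fold to 2.55-fold lower, and Ankrd1 from 32.4-fold to 4.87-fold (2.73 ± 0.122, edgeR adjusted p = 2.97e-12). The TEAD letters GGAATG were in 11 of 24 promoters of these genes (45.8%) and in 12.6% of promoters of tested genes.

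Under the naming rule, genes whose higher level in spheroids shrank were Gsta4, Gas1 and Cd36. Gsta4, a glutathione transferase, stood at 1.08, 1.16 and 1.07 CPM in 48 h monolayers and 17.2, 14.4 and 16.9 CPM in 96 h monolayers. In spheroids it went from 71.1, 79.5 and 65 CPM to 22.9, 24.1 and 21.6 CPM, and the 64.2-fold excess became 1.4-fold (-5.52 ± 0.188, edgeR adjusted p = 1.09e-13). Transferases of this family resemble each other, so its reads may be shared. Gas1, a membrane protein of growth arrest, went from 27.8-fold to 2.34-fold higher. The collagen Col11a1 (13.6-fold to 1.94-fold lower) and the mitochondrial folate enzyme Aldh1l2 (8.23-fold to 1.69-fold lower) shrank from below. Id2, an inhibitor of helix-loop-helix factors, was the lowest of the TGF-beta list (-2.36), in which 16 of 28 were below 0 and 5 above.

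Effects that faded were called at 48 h and not at 96 h, which does not show that the formats were equal by then. Akr1c18, which inactivates progesterone, stood between 0.746 and 1.61 CPM in 48 h monolayers and at 36.1, 32 and 30.3 CPM in 48 h spheroids. At 96 h the formats overlapped, with 7.52, 5.89 and 6.35 CPM in monolayers and 6.65, 5.68 and 4.38 CPM in spheroids (-5.18). Gclc, the catalytic subunit for glutathione synthesis, went from 5.73-fold higher to 1.01-fold (-2.51), and Selenop, a selenium carrier, from 6.64-fold higher to 1.08-fold lower (-2.85). From below, Cth, which makes cysteine, overlapped at 96 h after a 13-fold deficit at 48 h (3.85). Its 96 h libraries held 8.56, 8.77 and 7.5 CPM in monolayers and 8.33, 8.72 and 10.2 CPM in spheroids. The 96 h libraries of the peptide hormone Adm2 overlapped too, after a 9.66-fold deficit (3.49).

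Interferon genes, the antiviral response, were more often led by spheroids. Of 34, 18 were above 0 and 3 below (median 0.69), 9 shrank and 11 were spheroid-led. In spheroids 22 rose and none fell with time, and in monolayers 18 rose and 6 fell. Ifit1, which binds viral RNA, rose from 0.473, 0.347 and 0.779 CPM to 4.51, 3.78 and 3.42 CPM in spheroids, and its monolayer change did not pass (interaction 2.32, edgeR adjusted p = 0.000601; limma adjusted p = 0.0649 on log2 FPKM). The regulator Irf7 faded (1.37). ISRE letters, 2 runs of GAAA with any 2 bases between them, were in 15 of 33 promoters of these genes (45.5%). They were in 2.86% of promoters of tested genes. On log2 FPKM, 10 members were above 0 and 5 below.

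Inflammatory and NF-kB targets had 20 of 31 above 0 and 6 below (median 0.51), and 16 were monolayer-led. Of all tested genes, 26.9% were above 0 and 27.3% monolayer-led. The lean was not particular to this list: of 29 housekeeping genes 17 were above 0 (median 0.38) and 17 monolayer-led. Cxcl5, a neutrophil chemokine, went from 7.5-fold to 122-fold higher in spheroids, where it rose from 50, 51.8 and 44.2 CPM to 140, 151 and 148 CPM. In monolayers it fell from 5.1, 7.13 and 7.07 CPM to 1.04, 1 and 1.5 CPM. The cytokine Tnf faded (2.09), having fallen in monolayers, and Il6 was among the members below 0.

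Genes of p53, the stress-responsive brake on division, had 17 of 29 below 0 and 3 above (median -0.39). Of all tested genes, 26.4% were below and 26.9% above. In the list 10 were monolayer-led, where 27.3% of all tested genes were. The spheroid effect on Trp53inp1 was not called at 48 h. Its monolayer level rose from 121, 116 and 103 CPM to 542, 543 and 427 CPM, and spheroids were 5.78-fold lower at 96 h (-2.57). Mdm2, the ligase that degrades p53, rose 2.65-fold in monolayers (-1.66). Trp53 itself was slightly above 0 (0.28, edgeR adjusted p = 0.0271), a call lost in 9 of 20 alternatives. These include leaving out monolayer 48 h replicate 3 (0.0596), spheroid 48 h replicate 1 (0.0618), monolayer 96 h replicate 2 (0.0594) and spheroid 96 h replicate 1 (0.0628) or 2 (0.0516).

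Among the effects that appeared only at 96 h, Arg1, arginase, held 16.3, 19.1 and 21.6 CPM in 48 h monolayers and 19.7, 21.5 and 20.5 CPM in 48 h spheroids, which overlap. At 96 h it held 4.88, 4.88 and 6 CPM in monolayers and 102, 104 and 102 CPM in spheroids, a 19.5-fold difference (4.17 ± 0.148, edgeR adjusted p = 1.62e-13). Wfdc18, a secreted whey acidic protein relative, rose 3.5-fold in spheroids (2.20), and the cytoskeletal gene Ccdc141 gave 2.61. In the other direction Thbd, thrombomodulin, rose in monolayers from 10, 12.5 and 10.2 CPM to 155, 112 and 70.1 CPM, a wide spread, and fell in spheroids from 11.1, 10.3 and 9.46 CPM to 2.83, 5.1 and 3.94 CPM (-4.75 ± 0.4, edgeR adjusted p = 1.6e-08). Grem1, a secreted BMP inhibitor, rose 6.94-fold in monolayers and fell 2.08-fold in spheroids (-3.85).

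Genes often used as controls did not stay level. Of 29 housekeeping genes, 17 were above 0 and 4 below (median 0.38), and 17 were monolayer-led. Ppia, a prolyl isomerase, fell in monolayers from 1685, 2041 and 2135 CPM to 822, 947 and 990 CPM and stood between 1941 and 2380 CPM in spheroids (1.32). Gapdh reversed from -0.22 to 0.25 (0.47, edgeR adjusted p = 0.000466; limma adjusted p = 0.0685 on log2 FPKM). On log2 FPKM, 10 of these genes were above 0. Hypoxia and glycolysis genes (9 above, 13 below of 31), immediate early genes (4 above, 9 below of 25), heat shock genes (5 above, 4 below of 20) and keratinization genes (4 above, 6 below of 18) had no shared direction.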

How the data were processed

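Per the submitters' processing notes, the authors used bcl2fastq 2.15.0, Bowtie 1.0.1 and RSEM 1.2.30 with the mouse build mm9; options and strand setting: not given in the sources used here. For 28427 rows, deposited values were expected counts from RSEM, already whole numbers, and log2 of FPKM plus 1, with a table of mm9 symbols. 2093 rows carry more than 1 symbol. No columns were left out. Library totals lay between 7674105 and 13554497 counts.

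The fit used edgeR 4.0.16 under R 4.3.3, with filterByExpr (minimum count 10, minimum total 15), TMM, and a quasi-likelihood model of 4 groups over 12 libraries, 2-sided, with Benjamini-Hochberg adjustment over 13951 genes and a threshold of 0.05. SE is the log2 value divided by the square root of F. CPM are by TMM-adjusted library size; marker sums use total counts. Deposited log2 FPKM values were used for an alternative with limma 3.58.1, and DESeq2 1.42.0 for another; scaling, filters, each library left out and the replicate number were also varied. Tested on simulated data of 13743 genes, the interaction test recovered 84 of 100 genes changed 2-fold and 99 of 100 changed 4-fold, with 8 false calls. Only those changed genes, drawn from above a floor of mean counts, had an interaction, and all genes shared the same spread. The simulation therefore cannot show how many false calls arise where spread differs by gene or where, as here, 53.3% of genes are called.

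The members and the 32 gene lists were chosen with earlier results of these data known. Of 871 list symbols, 869 had a row. Named are the 3 genes with the largest interaction in each class and direction (log2 size at least 1, mean log2 CPM at least 3, 30 counts in every group, 1 symbol that is not a clone or provisional name, all 9 differences at 96 h on one side of those at 48 h), the highest and lowest called member of each list, a fixed set of well-known genes, and further list members as examples chosen after their values were seen; some genes the rule names are not reported here. Promoters come from RefSeq, GRCm38.p6, another build than that of the counts.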

Additional observations from a re-analysis of the deposited data

Results flagged for a closer look

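The interaction is itself a test of whether the spheroid effect differed between the times, so each of the 7433 called genes qualifies here. Listed are genes named by rule whose effect was called at both times with opposite signs, with the interaction on the log2 scale from edgeR's quasi-likelihood test. Turning toward spheroids were Ccl9 (5.86), Slc7a3 (5.14), Car2 (4.38), Krt8 (1.41), Cdh1 (0.87) and Gapdh (0.47). Cdh1 and Gapdh had small spheroid effects at 96 h, 0.15 and 0.25, and whether they also reversed under other scalings is not reported singly. Turning toward monolayers were Abcc4 (-5.39), Cck (-5.09) and Angptl4 (-5.00).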

How the results depend on the processing

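With 1 library left out at a time, calls ranged from 6834 to 7724 (3495 to 3943 above 0, 3339 to 3781 below) and calls over 2-fold from 2797 to 3083. Grown effects ranged from 1700 to 2121, shrunken from 550 to 688, reversed from 937 to 1179, appeared from 2385 to 2874 and faded from 881 to 1024. Monolayer-led genes ranged from 3451 to 4103, spheroid-led from 1326 to 1544 and those moved by both from 2013 to 2226. With limma on log2 FPKM, 1739 genes passed 2-fold, and the cause was not tested. Of the 1059 reversed genes, 865 also reversed with scaling by total count alone and 812 on log2 FPKM. Genes moved by both were 1252 when a 1.5 times larger change made a leader and 3434 at 3 times. DESeq2 called 6979 genes, 6914 of them shared. With the replicate number as a block, 7417 were called, 7293 shared. Same-numbered libraries of different groups had deviations correlated at -0.11 to 0.0881. No pairing by number was seen, but values this low cannot show that same-numbered samples are unrelated.

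Of 145 genes examined singly, 134 kept their side of the threshold in every one of the up to 20 alternatives that gave a value; the exceptions were Csn1s1, Cxcl15, Fosb, Gapdh, Ifit1, Itgb1, Nipbl, Sprr1a, Stat5a, Trp53 and Vim. No called gene among these 145 changed sign, while Elf5, which was not called, ranged from -0.16 to 0.08. Over all tested genes, 3 that were called both in the main fit and on log2 FPKM had opposite signs. The median of a list changed sign in 1 to 4 alternatives for the basal, keratinization, basement membrane, fibrillar collagen, unfolded protein, heat shock and fibroblast lists, and in none for the other 25. Low counts limit Csn2, Csn1s1 and Ifit1 in particular.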
